A study of Mus musculus with 5 samples.

Results

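Mural cells are the cells on the outer wall of blood vessels, and here they were 1301 of 37519 kept cells in 5 single-cell RNA libraries, 4 from mouse sarcomas and 1 from resting hindlimb muscle. They were chosen by their own RNA. Cells were kept when they showed 500 or more genes and no more than 10% mitochondrial UMIs (unique molecular identifiers, 1 per captured RNA molecule). A kept cell was taken as mural if it held Rgs5 at 5 or more UMIs per 10000 and at least 1 UMI of 3 or more of Rgs5, Notch3, Kcnj8, Abcc9, Higd1b and Myh11. The rule found 184 cells in sarcoma 1, 134 in sarcoma 2, 227 in sarcoma 3 and 19 in sarcoma 4, against 737 in muscle. The 3 sarcoma libraries with at least 50 such cells were compared with muscle.

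Sarcoma libraries came from mice with Hic1 CreERT2 on both alleles, 2 copies of the Cre-dependent Rosa26 LSL-tdTomato reporter and floxed Smarcb1 (FL/FL), and the tissue was labelled shoulder for sarcoma 1, head for sarcoma 2, head/ear for sarcoma 3 and hip for sarcoma 4. The muscle library came from the same homozygous Hic1 CreERT2 line with 1 copy of the reporter and no floxed Smarcb1 allele. All were C57BL/6J and were given 2.5 mg of tamoxifen daily on 5 days at 8 weeks of age, which turns on the Cre in cells that use the Hic1 promoter, followed by a washout of 10 days. The labels call the tumours epithelioid sarcoma at endpoint and the muscle quiescent, name tdTomato cells without stating the FACS gate, list every library as mesenchymal progenitors, and do not give the age at collection. Genotype, reporter copies, tissue and body site change together between sarcoma and muscle, so their parts in any difference cannot be told apart. The labels do not tie the sarcomas to different mice, so p-values reflect only how far these libraries vary, which may be technical. The single muscle library has no replicate.

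Mural cells include pericytes, which sit on capillaries and share a basement membrane with the endothelium, and smooth muscle cells, which ring arterioles and venules and contract. Endothelial PDGF-B recruits them through the receptor PDGFRB, and NOTCH3 keeps them in their vessel-wall state. Their tone is set in part by ATP-sensitive potassium channels, calcium channels and receptors for vasoactive hormones. Tumour vessels are known for loosely attached mural cells with altered matrix.

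Mural cells were 2.48% of kept cells in sarcoma 1 (95% exact Clopper-Pearson interval 2.13 to 2.85), 1.63% in sarcoma 2 (1.37 to 1.93), 3.27% in sarcoma 3 (2.86 to 3.71) and 0.278% in sarcoma 4 (0.168 to 0.434), against 9.09% in muscle (8.47 to 9.74). Every sarcoma share lay below muscle, but the sort and the number of tumour cells can set such shares, and with 1 muscle library no test was made. The cut in Rgs5 passed through few cells. Members with 5 to 10 Rgs5 UMIs per 10000 numbered 5, 5, 6 and 1 in sarcomas 1 to 4 and 12 in muscle, and cells that met the other conditions with 2.5 to 5 numbered 0, 1, 2 and 2 in the sarcomas and 10 in muscle. Members with exactly 3 of the 6 genes numbered 7, 3, 13 and 2 in the sarcomas and 48 in muscle, while 3, 8, 4 and 2 sarcoma cells and 6 muscle cells had enough Rgs5 but only 2 of the genes.

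Sarcoma members were read more deeply, with median UMIs per cell of 12314.5, 11867.5 and 10869 in sarcomas 1 to 3, against 3349 in muscle. Each member was therefore thinned at random to 2000 UMIs, which left 183, 132 and 223 sarcoma cells and 610 muscle cells, and dropped 127 muscle cells and 7 sarcoma cells with fewer. The thinned UMIs were summed per library and are given as CPM, counts per 1000000 of the members' UMIs. At this depth 1 UMI was 2.73, 3.79 and 2.24 CPM in sarcomas 1 to 3, against 0.82 CPM in muscle. Thinned sarcoma members had 3.41, 3.14 and 3.48% mitochondrial UMIs and medians of 1104, 1120 and 1141 detected genes, against 3.33% and 1187 genes in muscle. Between any 2 libraries at most 22 cell barcodes were shared. Doublets, barcodes holding RNA of more than 1 cell, were not removed.

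Smarcb1, the chromatin remodelling subunit whose floxed alleles define the sarcoma model, had 65.6, 64.4 and 103 CPM in mural cells of sarcomas 1 to 3, against 137 CPM in muscle mural cells. The sarcomas lay below muscle, and the difference did not pass edgeR's quasi-likelihood test (log2 fold change -0.70 ± 0.37 SE, edgeR adjusted p = 0.304). It passed without sarcoma 3 (-0.95, edgeR adjusted p = 0.0442). All other kept cells of the same libraries had 2.31, 2.82 and 21.3 CPM in the sarcomas, against 81.4 CPM in muscle, so the RNA was far scarcer in the rest of each sarcoma library than in its mural cells. Hic1, the gene that carries the Cre, had 41.0, 53.0 and 51.6 CPM in sarcoma mural cells, against 71.3 CPM in muscle mural cells (edgeR adjusted p = 0.523). The tdTomato reporter had 2424, 1265 and 3253 CPM in sarcoma mural cells, against 1664 CPM in muscle, and the groups overlapped (edgeR adjusted p = 0.522).

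Levels of mural cell genes were examined next. Of these, 6 had chosen the cells, so their presence is no check of the label, and they are given without a test. Rgs5, a brake on G-protein signals and the classical pericyte marker, had 7773, 8568 and 8466 CPM in sarcomas 1 to 3 and 8628 CPM in muscle. Notch3, the mural Notch receptor, stood at 527, 720 and 655 CPM in the sarcomas and 716 CPM in muscle. Kcnj8, the pore of the vascular ATP-sensitive potassium channel, had 740, 735 and 637 CPM in the sarcomas against 2454 CPM in muscle (95% exact Poisson interval 2367 to 2544). Its partner subunit Abcc9, which lies next to it on chromosome 6, had 593, 716 and 630 CPM in the sarcomas against 1542 CPM in muscle (1473 to 1613). Higd1b, a mitochondrial protein gene enriched in pericytes, had 538, 417 and 390.1 CPM in the sarcomas against 748 CPM in muscle, and Myh11, the smooth muscle myosin heavy chain, 148, 121 and 193 CPM against 396 CPM. Intervals cover counting error only. Members were chosen before thinning, at the unequal depths given above, and deeper cells more often hold a UMI of any gene. The part of this choice in the gaps of the rule's genes was not tested.

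Pdgfrb, the receptor for PDGF-B, was not used by the rule and stood far above the other cells of each library. It had 825, 1117 and 1173 CPM in sarcoma mural cells and 1502 CPM in muscle mural cells, and all other kept cells had 87.4, 94.6 and 183 CPM in the sarcomas and 152 CPM in muscle. The transcription factor gene Ebf1 had 948, 1379 and 1486 CPM in the sarcomas against 2682 CPM in muscle, and Ndufa4l2, a mitochondrial gene typical of pericytes, 1066, 879 and 966 CPM against 1979 CPM. Neither passed the test (edgeR adjusted p = 0.103 for each), and both passed without sarcoma 3 (0.00446 for Ebf1 and 0.0161 for Ndufa4l2). Pdgfrb, Ebf1 and Ndufa4l2, which the rule did not use, were thus present in the mural cells of every library compared.

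**Figure D1:**
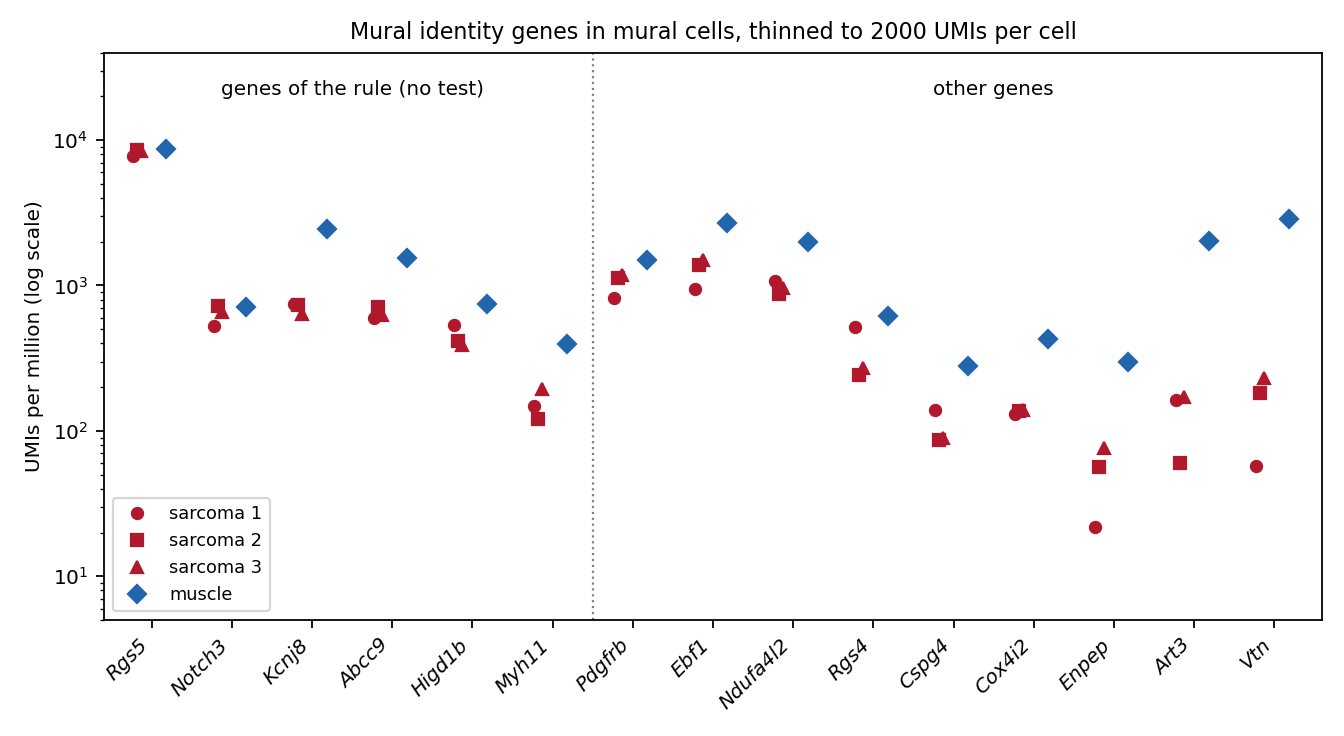
Levels (CPM of thinned UMIs, log axis) of the 6 genes that chose the mural cells and of 9 further mural genes, with red symbols for sarcomas 1 to 3 and a blue diamond for muscle. The 6 genes of the rule are a description only. Among the further genes Vtn lies at 57.4 to 231 CPM in the sarcomas against 2869 CPM in muscle.

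Other cell types were checked by marker lists. Summed over 10 endothelial markers, sarcoma mural cells had 596, 481 and 596 CPM, against 598 CPM in muscle mural cells. Most of this was Esam, an adhesion gene also used by other cells (352, 273 and 415 CPM against 552 CPM), and the other 9 markers summed to 243, 208 and 182 CPM in the sarcomas against 45.9 CPM. Of the 3 markers tested, Flt1 and Emcn were called higher and Esam was not; Emcn, the endothelial sialomucin endomucin, had 30.1, 83.3 and 58.3 CPM against 12.3 CPM (edgeR adjusted p = 0.0278). The defining genes Pecam1 (2.73, 3.79 and 2.24 CPM against 1.64 CPM) and Cdh5 (0, 3.79 and 2.24 CPM against 0) were at most at the level of 1 or 2 UMIs. The 10 haematopoietic markers summed to 35.5, 26.5 and 15.7 CPM in the sarcomas against 0.82 CPM in muscle, with the pan-leukocyte gene Ptprc at 0 in all 4. Glial markers summed to 35.5, 60.6 and 11.2 CPM against 19.7 CPM, with Sox10 at 0 in all 4. Fibroblast markers summed to 1852, 2417 and 4543 CPM in sarcoma mural cells, against 7598 CPM in muscle mural cells, and the other cells of the libraries had 3743, 7954 and 14716 CPM in the sarcomas against 65944 CPM in muscle. The 8 genes of the sarcoma cells, chosen from earlier results of these data, summed to 456, 375 and 271 CPM in sarcoma mural cells against 11.5 CPM in muscle, and to 3679, 4377 and 1263 CPM in the other cells of the sarcomas.

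Across all genes, mural cells of the 3 sarcomas were tested against those of muscle with edgeR's quasi-likelihood test, calling genes at a Benjamini-Hochberg adjusted p of 0.05. Of 7255 genes tested, 260 were higher in sarcoma mural cells (3.58%) and 261 were lower (3.6%), together 7.18%. The spread in the test comes from the 3 sarcomas alone, since muscle is assumed to vary as they do. Of the 521 called genes, 518 had every sarcoma on the same side of muscle. For comparison, 24.7% of all genes tested had every sarcoma above muscle and 37.4% had every sarcoma below. Over every gene tested, the median log2 fold change was -0.003, and -0.12 when libraries were scaled to their totals alone. The counts depend on the libraries: without sarcoma 3 they were 600 higher and 591 lower of 6585 tested, and without sarcoma 1 274 and 257 of 7505. With every member holding a sarcoma cell gene left out they were 119 and 135 of 4040. Without thinning, where the depths differ, they were 53 and 96 of 11881. Calls of lists and genes under these settings are to be read against these totals, not against the main shares.

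**Figure D2:**
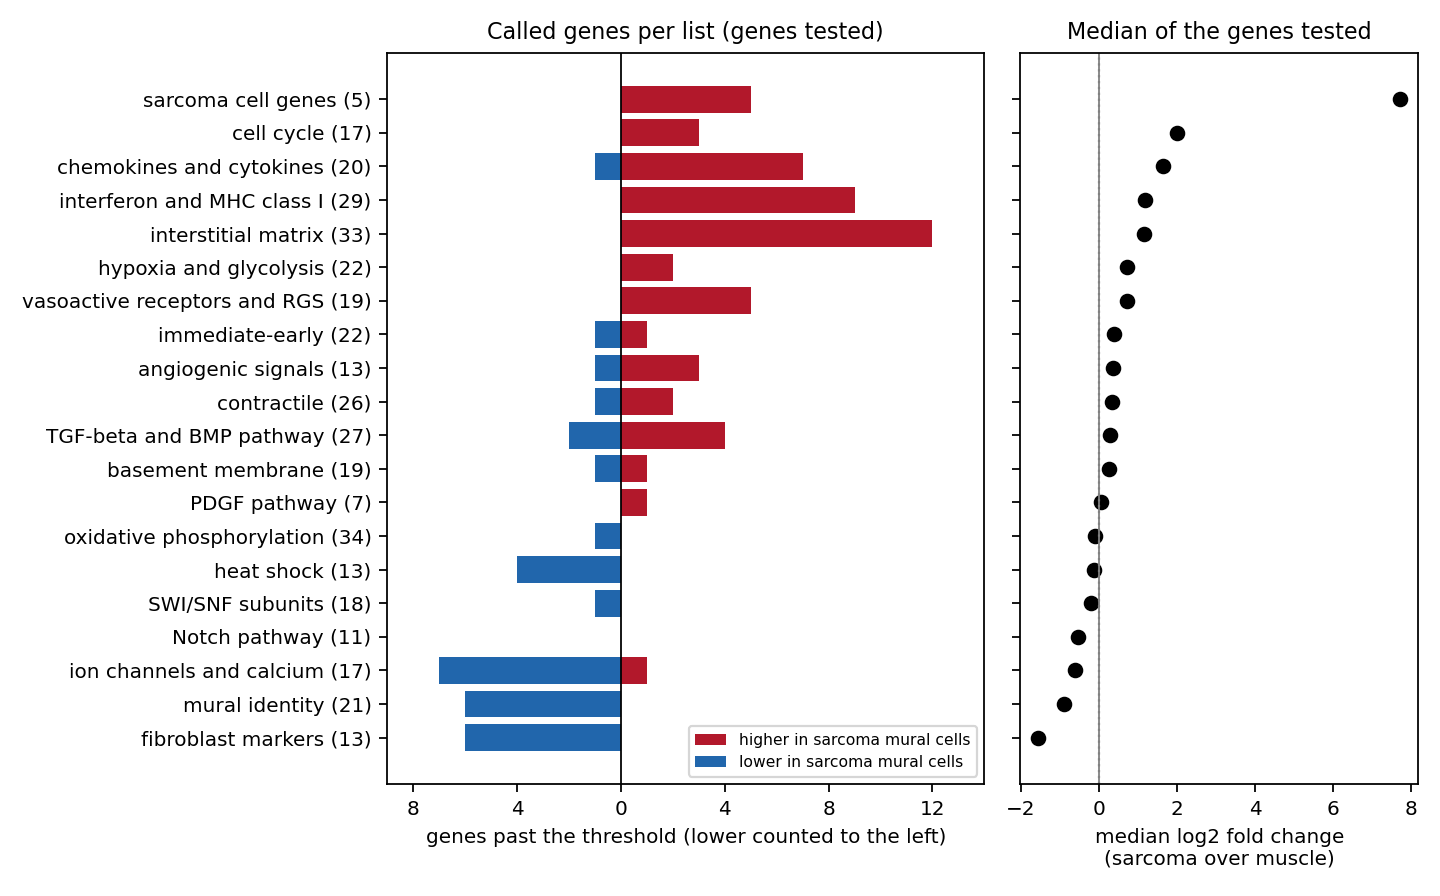
Numbers of tested genes called higher or lower in sarcoma mural cells (left) and median log2 fold change, sarcoma over muscle (right), for the gene lists with at least 5 tested members. Interstitial matrix (12 of 33 higher) and interferon and MHC class I genes (9 of 29 higher) have the most rises by number among the plotted lists, and ion channels and calcium genes (7 of 17 lower) the most falls.

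The mural identity list moved down where it moved. Of 21 tested members that the rule did not use, 6 fell, none rose and 15 were not called. The median log2 change was -0.89, and 13 members lay below muscle in every sarcoma. Without sarcoma 3, 9 of 20 fell and 2 rose. Vtn, which encodes the adhesion protein vitronectin (chromosome 11), had 57.4, 182 and 231 CPM in sarcomas 1 to 3, against 2869 CPM in muscle (95% exact Poisson interval 2775 to 2966). All 3 sarcomas lay more than 10-fold below muscle (log2 fold change -4.10 ± 0.47 SE, edgeR adjusted p = 0.000221). Art3, an ADP-ribosyltransferase family gene (chromosome 5), had 164, 60.6 and 170.4 CPM in the sarcomas against 2035 CPM in muscle, also without overlap (-3.82 ± 0.41, edgeR adjusted p = 0.000145). Vtn and Art3 were called under every alternative setting in which they were tested.

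Smaller falls in the identity list concerned a peptidase, a respiratory subunit and a proteoglycan. Enpep, the membrane peptidase that cleaves angiotensin II, had 21.9, 56.8 and 76.2 CPM in sarcoma mural cells against 297 CPM in muscle (log2 fold change -2.41 ± 0.43 SE, edgeR adjusted p = 0.0043). Cox4i2, a subunit of respiratory complex IV used in vessel walls and lung, had 131, 136 and 139 CPM against 430.3 CPM (-1.57 ± 0.30, edgeR adjusted p = 0.00747). Cspg4, the NG2 proteoglycan of pericytes, had 139, 87.1 and 89.7 CPM against 279 CPM (-1.29 ± 0.35, edgeR adjusted p = 0.0396), a call lost without sarcoma 2 (edgeR adjusted p = 0.112). Rgs4 (516, 242 and 271 CPM against 615 CPM, edgeR adjusted p = 0.334) and Pdgfrb (edgeR adjusted p = 0.505) were not called. Among the markers named here the log2 fold changes thus spanned -4.10 for Vtn to -0.44 for Pdgfrb.

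Genes of calcium handling and ion channels formed the list with most falls: 7 of 17 tested members fell, 1 rose, and the median log2 fold change was -0.62, with 11 below muscle in every sarcoma. Genes here and below outside a fixed rule (set out with the processing) were chosen after their values were seen. Casq2, the calcium-binding protein of the sarcoplasmic reticulum (chromosome 3), had 35.5, 72.0 and 42.6 CPM in sarcomas 1 to 3 against 564 CPM in muscle (95% exact Poisson interval 523 to 608). No sarcoma came near muscle (log2 fold change -3.44 ± 0.36 SE, edgeR adjusted p = 0.000138). A Casq2 UMI was seen in 5.46, 7.58 and 6.73% of sarcoma members, against 53.4% of muscle members, all thinned to the same depth. Other cells had a Casq2 UMI in at most 0.07% of cells in any library.

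Voltage-gated calcium channel genes fell as well. Cacna1c, the pore of the L-type channel, had 27.3, 30.3 and 31.4 CPM in sarcoma mural cells against 98.4 CPM in muscle (log2 fold change -1.62 ± 0.37 SE, edgeR adjusted p = 0.0167). Cacna1h, a T-type channel, was at 0, 0 and 2.24 CPM against 61.5 CPM, where 1 UMI in the sarcomas gives a muscle over sarcoma ratio of 66.1 (95% interval 11.5 to 2647; edgeR adjusted p = 0.00165). Cacnb2, an auxiliary subunit, had 0, 3.79 and 4.48 CPM against 49.2 CPM, a muscle over sarcoma ratio of 17.6 (5.75 to 87.9, edgeR adjusted p = 0.0138). These and later ratios pool the UMIs of the sarcomas compared, so their intervals cover counting error only. The potassium channel gene Kcna5 had 0, 0 and 13.5 CPM against 115 CPM (log2 fold change -4.25 ± 0.68 SE, edgeR adjusted p = 0.00205), and the calcium-activated chloride channel gene Ano1 had 49.2, 49.2 and 105 CPM against 209 CPM (edgeR adjusted p = 0.0411; 0.0609 without sarcoma 1 and 0.0986 without sarcoma 2). Cacna2d1, another auxiliary subunit, moved the other way, with 180.3, 273 and 141 CPM in the sarcomas against 45.9 CPM in muscle (log2 fold change 2.18 ± 0.45 SE, edgeR adjusted p = 0.0097). Atp2a2, the calcium pump of the sarcoplasmic reticulum, was not called (169, 205 and 206 CPM against 227 CPM, edgeR adjusted p = 0.87).

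Receptors for vasoactive signals and regulators of G-protein signalling moved up where they moved: of 19 tested members outside the rule, 5 rose and none fell, with a median log2 fold change of 0.71. Ramp1, which turns the calcitonin receptor-like receptor into a receptor for the vasodilator CGRP (chromosome 1), had 268, 329.6 and 305 CPM in the sarcomas against 27.9 CPM in muscle (95% exact Poisson interval 19.3 to 38.9). The sarcoma libraries were close to one another and all far above muscle (log2 fold change 3.52 ± 0.42 SE, edgeR adjusted p = 0.000316). In other cells Ramp1 had 0.701, 0.768 and 2.20 CPM in the sarcomas against 36.8 CPM in muscle. A UMI was present in 37.7, 44.7 and 36.8% of sarcoma members against 4.10% of muscle members, and in 0.1, 0.14 and 0.41% of other sarcoma cells against 6.03% of other muscle cells.

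Adra2a, an adrenergic receptor gene, had 82.0, 125 and 244 CPM in sarcoma mural cells against 18 CPM in muscle (log2 fold change 3.16 ± 0.60 SE, edgeR adjusted p = 0.00696). RGS genes and an RGS partner gave 76.5, 94.7 and 33.6 CPM against 8.20 CPM for Rgs2, 451, 265 and 778 CPM against 121 CPM for Rgs16, and 104, 102 and 33.6 CPM against 11.5 CPM for Rgs7bp. Rgs2, Rgs16 and Rgs7bp all rose (edgeR adjusted p = 0.00933, 0.0282 and 0.0164). Endothelin and angiotensin receptors were not called: Ednra had 270.5, 443 and 239.9 CPM against 139 CPM (edgeR adjusted p = 0.0814, or 0.00409 without sarcoma 3), Ednrb had 489, 633 and 390.1 CPM against 359.8 CPM (0.419), and Agtr1a had 145, 94.7 and 141 CPM against 246 CPM (0.168).

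The contractile list as a group did not move one way. Of 26 tested members 2 rose, 1 fell and 23 were not called, and the median log2 fold change was 0.34. The summed level was 16066, 14640 and 14664 CPM in the sarcomas against 13583 CPM in muscle. Without sarcoma 3, 6 of 25 rose and 4 fell. Acta2, smooth muscle actin, had 3710.4, 2561 and 3565 CPM against 1943 CPM; every sarcoma was higher, without passing the test (log2 fold change 0.86 ± 0.37 SE, edgeR adjusted p = 0.2; 0.0329 without sarcoma 3). Tagln, the actin-binding protein SM22, overlapped, with 1484, 1011 and 1673 CPM in the sarcomas and 1240.2 CPM in muscle (edgeR adjusted p = 0.745). Actg2, an actin typical of visceral smooth muscle, rose, at 169, 75.8 and 83.0 CPM against 13.1 CPM (3.15 ± 0.58, edgeR adjusted p = 0.00562), as did Actn1, an actin cross-linker, at 249, 288 and 296 CPM against 67.2 CPM (2.14 ± 0.37, edgeR adjusted p = 0.00412). Myl9, the regulatory light chain of smooth muscle myosin, fell, at 503, 432 and 798 CPM against 2244 CPM (-1.86 ± 0.36, edgeR adjusted p = 0.00701). Among the abundant members, the myosin light chain gene Myl6 (2232, 2125 and 1861 CPM against 1440.2 CPM) and caldesmon, Cald1 (1997, 2511 and 1475 CPM against 1738 CPM), were not called (edgeR adjusted p = 0.327 and 0.716), though Myl6 passed without sarcoma 3 (0.0496).

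The members were not uniform, and a division by whether a cell held a Myh11 UMI before thinning followed the contractile genes in every library. This describes the cells and, since deeper cells more often hold a UMI of any gene, compares libraries of unequal depth. Sarcoma members with Myh11 numbered 93, 54 and 155 and those without 90, 78 and 68, against 384 with and 226 without in muscle. Acta2 had 5591, 4204 and 4497 CPM in sarcoma members with Myh11 and 1767, 1423 and 1441 CPM in those without, against 2443 and 1093 CPM in muscle. Tagln had 2296, 1889 and 2119 CPM with Myh11 and 644, 404 and 654 CPM without in the sarcomas, against 1611 and 611 CPM in muscle. In each library the cells with Myh11 had the higher Acta2 and Tagln.

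Vtn stayed low in both kinds of sarcoma cell, at 53.8, 157 and 200 CPM with Myh11 and 61.1, 199 and 301 CPM without, against 2785 and 3011 CPM in muscle. Col18a1 was high in both, at 1048, 852 and 916 CPM with and 900.0, 788 and 1118 CPM without in the sarcomas, against 88.5 and 26.5 CPM in muscle. The gaps between sarcoma and muscle in Vtn and Col18a1 thus stood on both sides of the division.

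**Figure D3:**
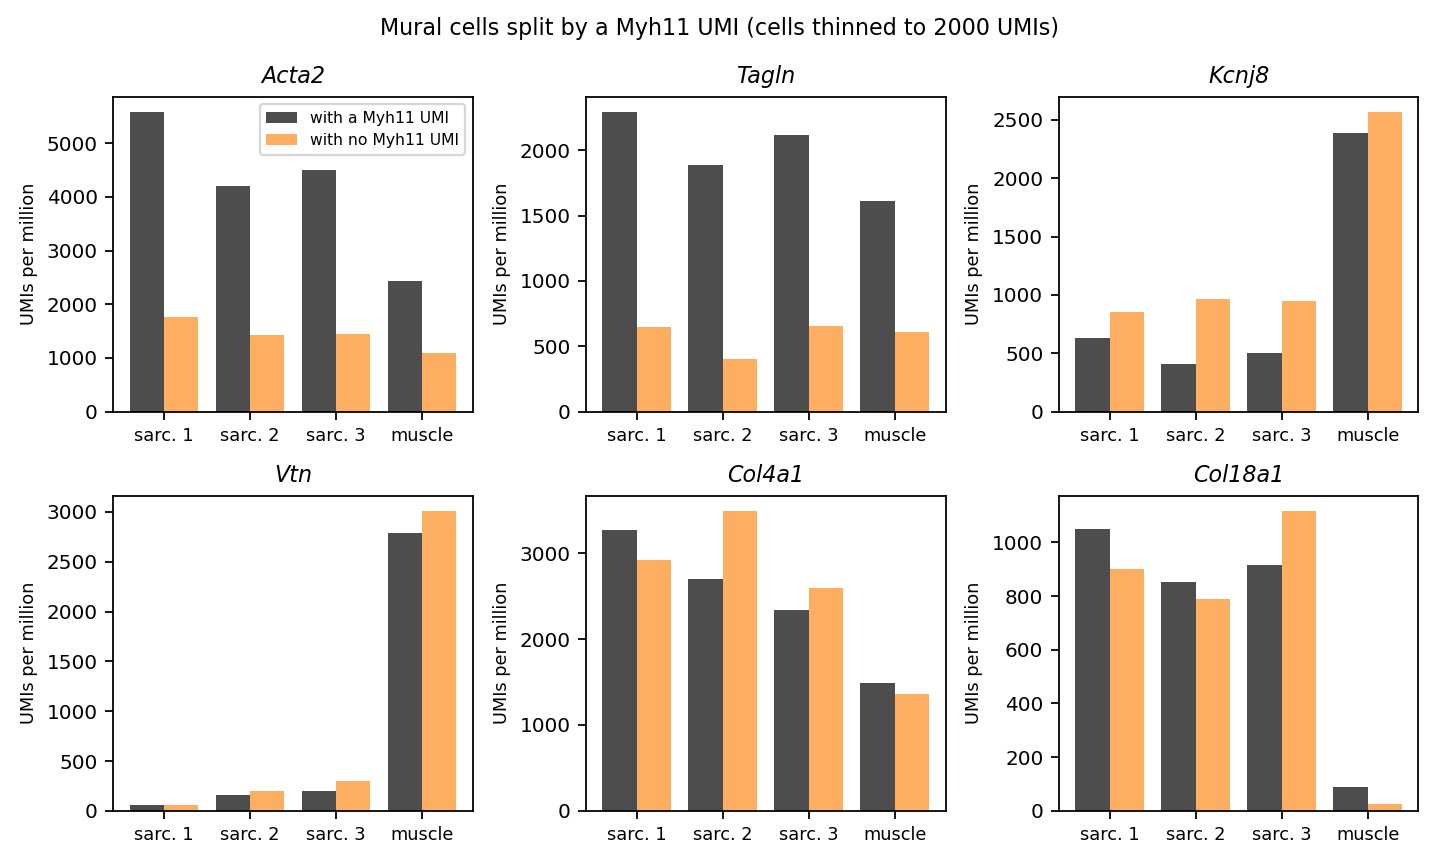
Levels (CPM of thinned UMIs, bars from 0) of 6 genes in mural cells with and without a Myh11 UMI, for sarcomas 1 to 3 (left) and muscle (right). Acta2 and Tagln are higher with Myh11 in every library, while Vtn is low in both kinds of sarcoma cell (53.8 to 301 CPM against 2785 and 3011 CPM in muscle). Kcnj8 helped choose the cells, and a member without Myh11 needs other genes of the rule, so its levels are a description only.

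Of the basement membrane list, 1 of 19 tested members rose and 1 fell, with a median log2 fold change of 0.25. Without sarcoma 3, 5 of 18 rose and 4 fell. Col18a1, the collagen that yields endostatin (chromosome 10), had 975, 814 and 978 CPM in sarcoma mural cells against 65.6 CPM in muscle (95% exact Poisson interval 52.0 to 81.6). The sarcomas lay close together and far above muscle (log2 fold change 3.91 ± 0.44 SE, edgeR adjusted p = 0.000195). At equal depth 78.1, 76.5 and 78.9% of sarcoma members held a Col18a1 UMI, against 9.67% of muscle members; without thinning the shares were 99.5, 95.5 and 96.5% against 15.7%. Other cells had 33.0, 13.2 and 14.1% in the sarcomas against 14.9% in muscle. The fall was Hspg2, the heparan sulphate proteoglycan perlecan, at 87.4, 125 and 85.2 CPM against 283 CPM (-1.43 ± 0.33, edgeR adjusted p = 0.0185).

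The most abundant basement membrane genes were higher in every sarcoma without passing the test. Col4a1, a chain of collagen IV, had 3098, 3167 and 2415 CPM in sarcoma mural cells against 1438 CPM in muscle (log2 fold change 1.11 ± 0.36 SE, edgeR adjusted p = 0.0871), and Col4a2 had 1631, 1670.5 and 1195 CPM against 922 CPM (edgeR adjusted p = 0.23). Sparc, a matrix glycoprotein, had 8710.4, 8106 and 6818 CPM against 4877 CPM (0.208). All 3 passed without sarcoma 3, at an edgeR adjusted p of 0.000915 for Col4a1, 0.0128 for Col4a2 and 0.00287 for Sparc. Other sarcoma cells had 139, 34.9 and 196 CPM of Col4a1, against 1242 CPM in other muscle cells.

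Genes of the interstitial matrix rose in part: 12 of 33 tested members rose, none fell, the median log2 fold change was 1.15, and 23 were above muscle in every sarcoma. Without sarcoma 3, 18 of 32 rose and 4 fell, and with every member holding a sarcoma cell gene left out 7 of 32 rose and 1 fell. Col8a1, a short-chain collagen of vessel walls (chromosome 16), had 309, 390.1 and 274 CPM in sarcoma mural cells against 10.7 CPM in muscle (log2 fold change 4.99 ± 0.50 SE, edgeR adjusted p = 0.000108). Postn, the matricellular protein periostin, had 1090.2, 973 and 1413 CPM against 103 CPM (3.58 ± 0.44, edgeR adjusted p = 0.000412). Bgn, the small proteoglycan biglycan, had 1434, 1322 and 1937 CPM against 249 CPM (2.75 ± 0.42, edgeR adjusted p = 0.00166). For these 3 genes every sarcoma was several-fold above muscle. In the other cells of sarcomas 1 to 3 Col8a1 had 100.3, 22.6 and 306 CPM against 67.6 CPM in other muscle cells, Postn 1036, 75.0 and 8012 CPM against 246 CPM, and Bgn 89.4, 103 and 2704 CPM against 770.2 CPM. The other cells thus exceeded the mural cells for all 3 genes in sarcoma 3 and in muscle, and for none of them in sarcomas 1 and 2, where Postn in sarcoma 1 was close. The part of RNA from those cells was not tested.

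The surrounding sarcoma cells also carried some of these genes. Timp1, an inhibitor of metalloproteinases, had 319.7, 572 and 370.0 CPM in sarcoma mural cells against 19.7 CPM in muscle (log2 fold change 4.49 ± 0.52 SE, edgeR adjusted p = 0.000245), while other cells had 1839, 4000.3 and 1298 CPM in the sarcomas against 58.1 CPM in muscle. Col5a2, a fibrillar collagen, rose as well (732, 765 and 939 CPM against 270.5 CPM, edgeR adjusted p = 0.0161), as did fibronectin, Fn1 (694, 1140.2 and 334 CPM against 163 CPM, edgeR adjusted p = 0.0359), with 189.6, 199 and 1392 CPM of Fn1 in other sarcoma cells against 1169 CPM in other muscle cells. The collagen modifying enzyme gene Plod2 lost its call without sarcoma 1 (edgeR adjusted p = 0.109), the metalloproteinase gene Adamts9 without sarcoma 2 (0.0547), and Col6a2 without either (0.0743 and 0.0835). Col1a1, the main chain of collagen I, had 1943, 2011 and 2352 CPM against 1124 CPM and was not called (edgeR adjusted p = 0.113; 0.0128 without sarcoma 3). Neither was Col3a1, at 1984, 3674 and 4047 CPM against 2016 CPM, where sarcoma 1 lay below muscle (edgeR adjusted p = 0.31). The part of RNA carried over from surrounding cells in these rises was not tested.

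**Figure D4:**
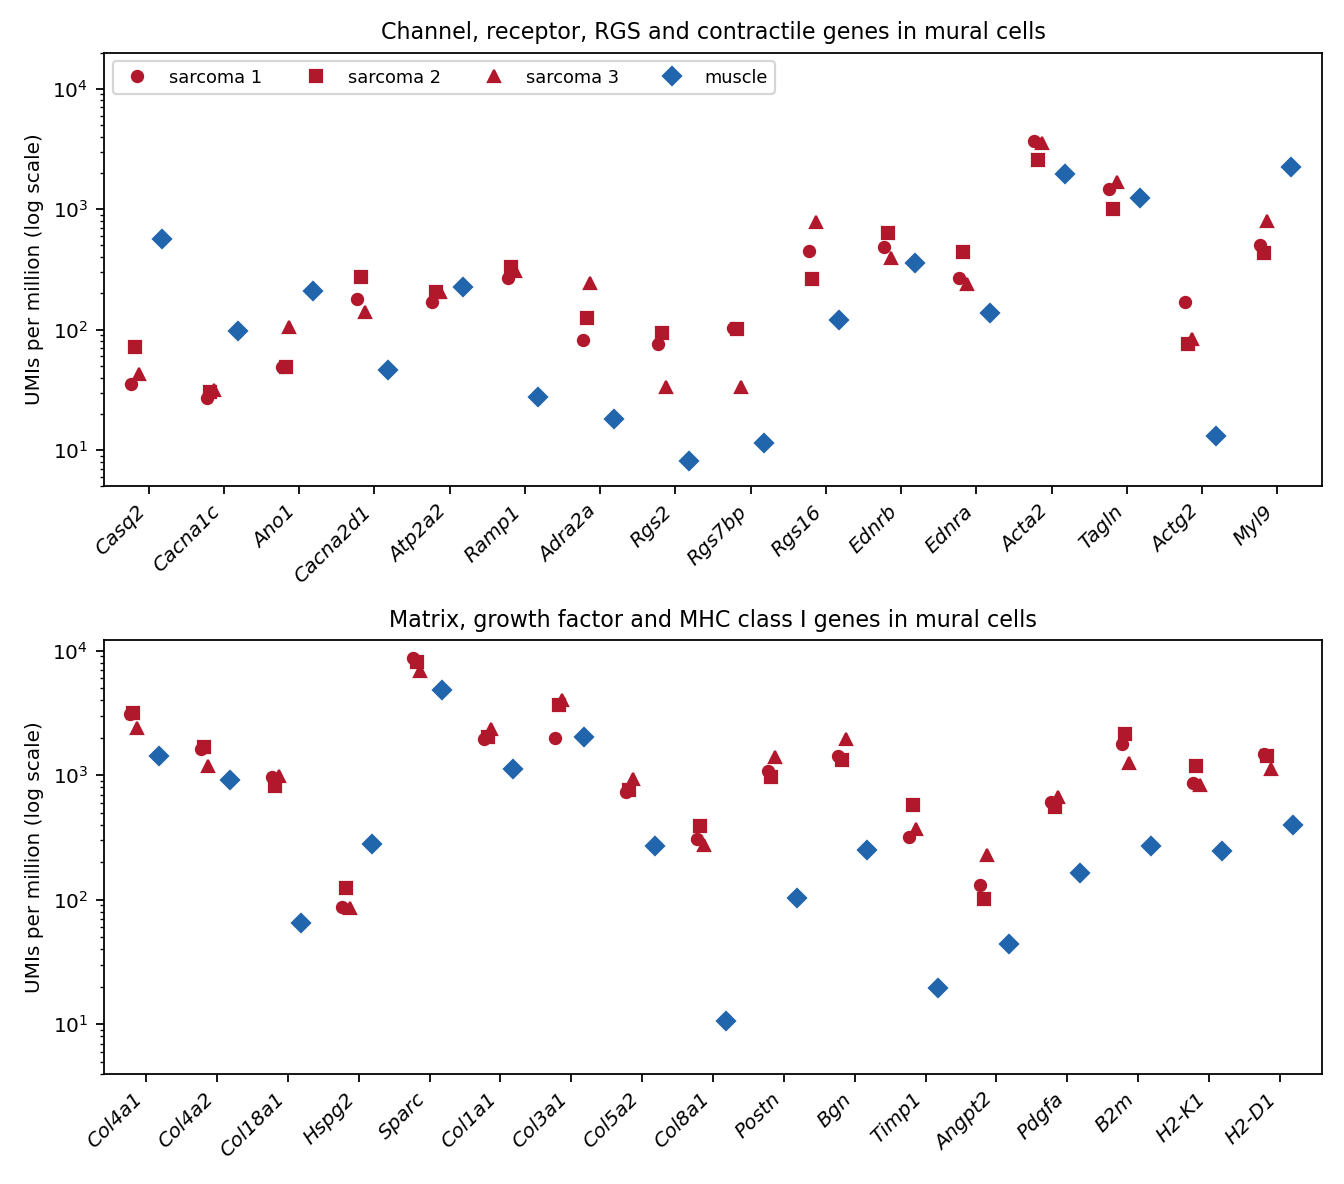
Levels (CPM of thinned UMIs, log axis) in sarcomas 1 to 3 (red symbols) and muscle (blue diamonds) of channel, receptor and contractile genes (top) and of matrix, growth factor and MHC class I genes (bottom). Casq2 and Cacna1c lie lower in all sarcomas and Col18a1, Col8a1 and Ramp1 higher in all, while the symbols of Tagln and Atp2a2 lie close together.

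Of 13 tested angiogenic genes 3 rose and 1 fell (median log2 fold change 0.35). Angpt2, the ligand that loosens mural contact by blocking TIE2, had 131, 102 and 229 CPM in sarcoma mural cells against 44.3 CPM in muscle (95% exact Poisson interval 33.3 to 57.8). All 3 sarcomas were higher (log2 fold change 1.91 ± 0.47 SE, edgeR adjusted p = 0.0262). It was near 0 elsewhere, at 1.26, 0.64 and 1.98 CPM in other sarcoma cells against 1.76 CPM in other muscle cells. The VEGF receptor gene Flt1 had 178, 98.5 and 108 CPM against 22.1 CPM (2.63 ± 0.49, edgeR adjusted p = 0.00602), and its ligand Pgf, placental growth factor, 27.3, 56.8 and 80.7 CPM against 7.38 CPM (2.97 ± 0.63, edgeR adjusted p = 0.0124). Flt1 is also an endothelial marker and rose beside Emcn and Ecscr, both known from endothelium, while Pecam1 and Cdh5 were near 0, as given above; the part of endothelial RNA in these rises was not tested. Adm, the vasodilator adrenomedullin, fell, at 5.46, 7.58 and 13.5 CPM against 49.2 CPM, and lost the call without sarcoma 2 (edgeR adjusted p = 0.0314 with it and 0.0599 without). The few members of sarcoma 4, left out of the fit, had 83.3 CPM of Adm, above muscle.

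In the PDGF pathway 1 of 7 tested genes was called. Pdgfa, a ligand made by mural cells for PDGFRA-bearing neighbours (chromosome 5), had 615, 561 and 670.4 CPM in the sarcomas against 164 CPM in muscle (95% exact Poisson interval 142 to 188). The sarcomas were close together and above muscle (log2 fold change 2.01 ± 0.38 SE, edgeR adjusted p = 0.00652), and other cells had 55.5, 17.7 and 10.3 CPM in the sarcomas against 35.2 CPM in muscle. Of 27 tested TGF-beta and BMP genes 4 rose and 2 fell (median 0.30), or 4 of 26 rose and 4 fell without sarcoma 3. Id3, a target of BMP signalling that blocks differentiation factors, had 1896, 1859.8 and 2020.2 CPM against 464 CPM (2.15 ± 0.38, edgeR adjusted p = 0.00412), and Id1 had 344, 114 and 235 CPM against 42.6 CPM (edgeR adjusted p = 0.0139). Other sarcoma cells also stood high in Id3, at 1319.8, 1472 and 1181 CPM against 457 CPM in other muscle cells.

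Tgfb1, a TGF-beta ligand, rose (87.4, 68.2 and 123 CPM against 27.0 CPM, edgeR adjusted p = 0.0218), and Inhba, an activin subunit, rose with a call that was lost without sarcoma 2 (edgeR adjusted p = 0.148) or sarcoma 3 (0.0502). Bmp5, a BMP ligand, fell (32.8, 26.5 and 26.9 CPM against 134 CPM, edgeR adjusted p = 0.00377), as did Ltbp1, which anchors latent TGF-beta in the matrix (2.73, 0 and 20.2 CPM against 82.0 CPM, edgeR adjusted p = 0.0137). No Notch pathway gene of 11 tested was called by edgeR (median -0.53, 2 at an unadjusted p under 0.05), and 2 fell without sarcoma 3. Among them the target gene Heyl had 73.8, 174 and 128 CPM against 251 CPM (edgeR adjusted p = 0.184), the ligand Jag1 123, 189 and 202 CPM against 290.2 CPM (0.291), and Hes1, another target, 396, 333 and 966 CPM against 869.7 CPM (0.592), where sarcoma 3 stood above muscle; without sarcoma 3, Hes1 passed (0.00733).

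Interferon-responsive and MHC class I genes were another list with many rises: 9 of 29 tested members rose, none fell, 20 were above muscle in every sarcoma, and the median log2 fold change was 1.18. Without sarcoma 3, 16 of 28 rose, and with every member holding a sarcoma cell gene left out 6 of 22 did. B2m, the light chain of MHC class I, had 1798, 2133 and 1262 CPM in sarcoma mural cells against 269.7 CPM in muscle (95% exact Poisson interval 241 to 300.4). Every sarcoma exceeded muscle (log2 fold change 2.78 ± 0.44 SE, edgeR adjusted p = 0.00205), and other cells had 644, 574 and 519 CPM in the sarcomas against 459 CPM in muscle. The heavy chain genes H2-K1 (872, 1186 and 834 CPM against 245 CPM) and H2-D1 (1494, 1420.5 and 1114 CPM against 396 CPM) rose too, at an edgeR adjusted p of 0.0073 and 0.0111. They are related in sequence, and how reads that match both were counted was not examined. The immunoproteasome genes Psmb8, which helps make peptides for MHC class I (134, 197 and 80.7 CPM against 18 CPM, edgeR adjusted p = 0.00558), and Psmb10 (131, 189 and 91.9 CPM against 33.6 CPM, 0.0164) were higher in every sarcoma.

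Among interferon-induced genes, Ifit3 rose (68.3, 117 and 29.1 CPM against 10.7 CPM, edgeR adjusted p = 0.0247). The ubiquitin-like gene Isg15 had 240.4, 246 and 80.7 CPM in sarcoma mural cells against 45.1 CPM in muscle (edgeR adjusted p = 0.0378; 0.0568 without sarcoma 2), and Ifit1 had 71.0, 49.2 and 15.7 CPM against 5.74 CPM (0.0347; 0.213 without sarcoma 1 and 0.0521 without sarcoma 2). Other sarcoma cells had 271, 218 and 42.9 CPM of Isg15, and more Ifit1 than the mural cells, at 200.3, 169.5 and 84.3 CPM. Ifitm3, an abundant membrane restriction factor, had 3027, 3655 and 2897 CPM against 1773 CPM without passing (edgeR adjusted p = 0.135; 0.00432 without sarcoma 3).

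The promoters of the called interferon and MHC class I genes were searched for GAAANNGAAA, the core of the interferon-stimulated response element, on both strands of the 250 bases before the RefSeq start (GRCm38.p6). A match was found in 4 of 8 called genes with a window, in 7 of 18 of the list's genes that were not called, and in 936 of 27025 genes (3.46%) with a promoter in the table. The windows of the 4 called genes with a match are shown because they hold the motif in these rising genes, each printed in the direction of its gene. Capitals mark the match, read as TTTCNNTTTC where it lies on the strand opposite to the one printed, and overlapping matches run together. By chromosome strand, the windows are B2m at chr2:122147437-122147686 on the plus strand, Isg15 at chr4:156200819-156201068 on the minus strand, Ifit3 at chr19:34583279-34583528 on the plus strand and Ifit1 at chr19:34640639-34640888 on the plus strand.
B2m: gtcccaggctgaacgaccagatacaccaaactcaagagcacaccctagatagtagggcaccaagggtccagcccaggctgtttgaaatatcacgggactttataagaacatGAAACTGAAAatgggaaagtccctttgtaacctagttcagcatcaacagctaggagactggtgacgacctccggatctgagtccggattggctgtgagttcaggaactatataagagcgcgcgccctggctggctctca
Isg15: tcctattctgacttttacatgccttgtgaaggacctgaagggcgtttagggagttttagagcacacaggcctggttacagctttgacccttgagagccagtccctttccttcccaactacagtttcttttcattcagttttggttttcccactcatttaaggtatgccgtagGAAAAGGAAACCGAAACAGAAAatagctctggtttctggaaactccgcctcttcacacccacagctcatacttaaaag
Ifit3: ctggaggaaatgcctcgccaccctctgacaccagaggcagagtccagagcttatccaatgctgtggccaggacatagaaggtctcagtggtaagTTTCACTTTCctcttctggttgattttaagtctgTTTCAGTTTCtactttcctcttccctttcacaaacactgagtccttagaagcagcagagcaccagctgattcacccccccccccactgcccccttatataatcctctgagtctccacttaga
Ifit1: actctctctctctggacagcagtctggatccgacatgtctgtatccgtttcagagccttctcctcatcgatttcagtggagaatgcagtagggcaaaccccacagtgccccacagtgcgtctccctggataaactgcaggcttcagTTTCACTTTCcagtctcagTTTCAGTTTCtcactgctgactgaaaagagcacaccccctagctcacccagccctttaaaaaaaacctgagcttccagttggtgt
The first match begins 139 bases before the start in B2m, 78 in Isg15, 156 in Ifit3 and 104 in Ifit1, and Isg15 holds 3 overlapping matches. No match was found in the windows of H2-D1, H2-K1, Psmb8 and Psmb10. A match is a description of these letters only.

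Of 20 tested chemokine and cytokine genes 7 rose and 1 fell, with a median log2 fold change of 1.65. Without sarcoma 3, 5 of 16 rose and 4 fell, and with every member holding a sarcoma cell gene left out 2 of 12 rose and 2 fell. Ccl2, which draws monocytes, had 342, 481 and 334 CPM in sarcoma mural cells against 80.3 CPM in muscle (log2 fold change 2.35 ± 0.41 SE, edgeR adjusted p = 0.00386), and other sarcoma cells had 1294, 432 and 116 CPM. Its neighbour in function Ccl7 had 68.3, 98.5 and 69.5 CPM against 13.9 CPM (edgeR adjusted p = 0.00504), and the cytokine gene Il6 had 158, 83.3 and 309 CPM against 35.2 CPM (0.022). Cxcl12, the ligand of CXCR4 that holds blood stem cells and lymphocytes near vessels, was the fall: it had 10.9, 22.7 and 155 CPM in the sarcomas against 1803 CPM in muscle (-4.65 ± 0.69, edgeR adjusted p = 0.00137). Sarcoma 3 stood above the other two, and all 3 were more than 10-fold below muscle. Other cells had 30.1, 67.2 and 506 CPM of Cxcl12 in the sarcomas against 501 CPM in muscle. Cxcl1, a neutrophil chemokine (349.7, 231 and 1242 CPM against 189 CPM), Nfkbia, the inhibitor of NF-kappaB (456, 428 and 1589.7 CPM against 400.8 CPM), and Ccl11, which draws eosinophils (246, 886 and 459.6 CPM against 316 CPM), were not called (edgeR adjusted p = 0.175, 0.326 and 0.42), though Cxcl1 passed without sarcoma 1 (0.00302) or sarcoma 2 (0.0442).

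Stress genes fell in part: 4 of 13 heat shock genes fell and none rose, with a median log2 fold change of -0.13. Hspa1a, an inducible HSP70 gene, had 123, 174 and 825 CPM in sarcoma mural cells against 5011 CPM in muscle mural cells (log2 fold change -3.63 ± 0.65 SE, edgeR adjusted p = 0.00465), and its near-identical copy Hspa1b, whose reads may be shared, 120.2, 242 and 695 CPM against 4577 CPM. Other cells of muscle were as high, at 4178 CPM of Hspa1a against 136, 136 and 96.6 CPM in other sarcoma cells, so the difference ran through whole libraries. Hspb1, a small heat shock protein gene, had 325, 269 and 522 CPM against 1407 CPM (edgeR adjusted p = 0.0089). Of 22 immediate-early genes, Jund fell (617, 708 and 901 CPM against 2459 CPM, edgeR adjusted p = 0.00832) and Nr4a2 rose (65.6, 34.1 and 98.7 CPM against 18 CPM, 0.0388), and the list's median was 0.39; without sarcoma 3, 5 of 21 fell and 2 rose. Fos, which cell dissociation is known to induce, had 1678, 1136 and 2219.7 CPM against 2238 CPM.

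Metabolic lists had few calls. Of 22 hypoxia and glycolysis genes 2 rose and none fell (median log2 fold change 0.72), or 8 of 22 rose without sarcoma 3, and of 34 oxidative phosphorylation genes 1 fell and none rose (median -0.09). Of 17 cell cycle genes 3 rose and none fell (median 2.00), and 1 of 11 rose without sarcoma 1. With every member holding a sarcoma cell gene left out, 4 were tested, 0 were called and the median was 0.82. Ube2c and Ccnb2, called higher, held only 3 and 0 UMIs in muscle members. Ccnd1, the cyclin that opens the cell cycle, rose, with 259.6, 193 and 53.8 CPM against 20.5 CPM (edgeR adjusted p = 0.0196). Other sarcoma cells had 909, 679.8 and 282 CPM of Ccnd1. Mki67, a marker of dividing cells, had 46.4, 7.58 and 13.5 CPM against 3.28 CPM and was not called (edgeR adjusted p = 0.233). Ribosomal protein genes, a list drawn after seeing the data, had 23 of 84 called higher and none lower (median 1.19). All ribosomal transcripts made up 13.4, 14.4 and 10.7% of thinned UMIs in sarcoma mural cells against 6.31% in muscle. In all other kept cells they made up 19.6, 23.9 and 13.7% in sarcomas 1 to 3 against 11.7% in muscle. The sarcomas thus stood above muscle in the other cells too. Of 18 SWI/SNF subunits tested, Brd9 fell, 17 were not called, and the median log2 fold change was -0.19 (1 of 17 rose and 3 fell without sarcoma 3); Brd9 lost its call without sarcoma 1 (edgeR adjusted p = 0.0925) or sarcoma 2 (0.0773).

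The largest rises were taken among genes at 50 CPM or more whose level in sarcoma mural cells was not below that of the other cells of the library. Hp, which encodes haptoglobin, had 161, 292 and 899 CPM in sarcoma mural cells against 0.82 CPM, or 1 UMI, in muscle, a pooled sarcoma over muscle ratio of 609 (95% interval 109 to 24093, edgeR adjusted p = 0.00137). The interval leaves out the spread between the sarcomas. H2-Q7, an MHC class I gene close in sequence to other H2 genes, had 142, 98.5 and 38.1 CPM against 0, at least 37.8-fold higher with 3 counts over muscle as floor. Ecscr, a membrane gene known from endothelium, had 115, 117 and 76.2 CPM against 3.28 CPM, and Adam12, a metalloproteinase of activated mesenchyme, 73.8, 90.9 and 71.7 CPM against 3.28 CPM (edgeR adjusted p = 0.000339 and 0.000391). All sarcomas lay above muscle for each of these genes, which was a condition of their choice.

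Further large rises were of Ctsc, a lysosomal peptidase (62.8, 178 and 233 CPM against 6.56 CPM, edgeR adjusted p = 0.00205), Piezo2, a mechanically gated channel (145, 242 and 74.0 CPM against 10.7 CPM, 0.00379), Runx1, a transcription factor of blood and mesenchyme (205, 208 and 195 CPM against 20.5 CPM, 0.000402), Prkar2b, a regulatory subunit of protein kinase A (246, 159 and 117 CPM against 17.2 CPM, 0.0018), and Fabp5, a fatty acid carrier (1601, 1114 and 390.1 CPM against 107 CPM, 0.0105). Runx1 was the most even of these over the sarcomas. Ramp1 and Col18a1, given above, were also among the 12 largest rises.

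Several of the largest falls were to no UMI at all in sarcomas 1 to 3. Opcml, a cell adhesion gene, was at 0 against 148 CPM in muscle, at least 53.2-fold lower with 3 counts over the sarcomas as floor (edgeR adjusted p = 0.000108). Myoc, which encodes myocilin, was at 0 against 123 CPM (at least 44.1-fold lower), with 1429.5 CPM in the other cells of muscle. Lmo1, a transcriptional cofactor, was at 0 against 64.8 CPM (at least 23.2-fold lower). In Plxdc1, a membrane gene known from tumour endothelium, 0, 0 and 6.73 CPM stood against 339 CPM, a muscle over sarcoma ratio of 121 (95% interval 41.3 to 591). Single UMIs in sarcoma 3 gave 2.24 CPM of Ccdc85a against 208 CPM, of Adrbk2, a kinase of adrenergic receptors, against 107 CPM, and of Fam212b against 102 CPM. Igfbp6, a binding protein of IGF-II, had 0, 0 and 11.2 CPM against 288 CPM, with 247, 45.1 and 212 CPM in other sarcoma cells and 2944 CPM in other muscle cells. In the few members of sarcoma 4, left out of the fit, Igfbp6 had 500 CPM, above muscle. Its call was kept in 16 of 19 alternative settings.

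Homeobox genes of the posterior body were among the falls in thinned mural cells. Hoxa10 (chromosome 6) was at 0 in sarcomas 1 to 3 against 63.9 CPM in muscle (at least 22.9-fold lower), its neighbour Hoxa9 at 0 against 54.9 CPM (at least 19.7-fold lower), and Hoxc10 at 0 against 54.1 CPM (at least 19.4-fold lower). Muscle came from the hindlimb, and these sarcomas were labelled shoulder, head and head/ear. In sarcoma 4, labelled hip, 18 thinned members held 2 UMIs each of Hoxa9 and Hoxa10, or 55.6 CPM, and none of Hoxc10. Hoxb2, named after its values were seen, went the other way, with 147.5, 155.3 and 125.6 CPM in the sarcomas against 44.3 CPM in muscle (edgeR adjusted p = 0.0144). Body site differs together with these genes, and cannot be told apart from sarcoma here.

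Some members carried RNA of the sarcoma cells. UMIs of 4 or more of the 8 sarcoma cell genes were found in 17 members of sarcoma 1 (9.24%), 9 of sarcoma 2 (6.72%) and 7 of sarcoma 3 (3.08%), against none in muscle. These cells were deep, with median UMIs of 42180, 39745 and 37949 in sarcomas 1 to 3, had lower medians of Rgs5 (21.9, 24.1 and 27.7 per 10000), and had Smarcb1 at 21.8, 22.4 and 42.8 CPM. Members with none of the 8 genes numbered 52, 42 and 113 in the sarcomas and had Smarcb1 at 80.9, 84.6 and 74.9 CPM, against 712 cells and 132.5 CPM in muscle. In the members as a whole, 5 of 5 tested sarcoma cell genes were called higher, with a median log2 fold change of 7.72. The 8 genes were chosen from earlier results of these data. The 5 tested held 0 to 2 UMIs in muscle members, so they entered the test through the sarcomas. Their calls therefore describe the members and are no independent result. Among them Gchfr had 57.4, 121 and 38.1 CPM against 0 (at least 29.4-fold higher). Nefl had 156, 7.58 and 40.4 CPM against 0 (at least 27.6-fold higher, with an edgeR adjusted p of 0.0537 without sarcoma 1). The median level of the abundant sarcoma cell genes in mural cells was 11.1, 9.24 and 13.6% of that in the other cells of sarcomas 1 to 3. For fibroblast markers it was 16.2, 17.1 and 13.2% in the sarcomas against 10.4% in muscle.

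Fibroblast markers fell in mural cells of the sarcomas: 6 of 13 tested fell and none rose, with a median log2 fold change of -1.55, or 10 of 13 fell and 1 rose without sarcoma 3. Dcn, the proteoglycan decorin, had 117.5, 473.5 and 1014 CPM in sarcoma mural cells against 1675 CPM in muscle mural cells and passed without sarcoma 3 (edgeR adjusted p = 0.185 with it and 0.000228 without). Pi16, a gene of adventitial fibroblasts, had 0, 3.79 and 8.97 CPM in sarcoma mural cells against 100.0 CPM in muscle mural cells (edgeR adjusted p = 0.00135), and other muscle cells had 981 CPM. Smoc2, a matrix gene of muscle fibroblasts, had 0, 0 and 26.9 CPM against 197 CPM, with 2364 CPM in other muscle cells. Of 261 genes lower in sarcoma mural cells, 45 were higher in the other cells of muscle than in its mural cells, and 216 were not. Whether RNA of surrounding cells sets those levels was not tested. The same split over all genes tested was not counted, so it describes the called genes only. Of 3 tested endothelial markers 2 rose, one of them Emcn (30.1, 83.3 and 58.3 CPM against 12.3 CPM, edgeR adjusted p = 0.0278; 0.064 without sarcoma 2).

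Of the 260 genes higher in sarcoma mural cells, 120 had in every sarcoma a level at least as high in mural cells as in all other kept cells of that library, and 140 did not. The same division over all genes tested was not counted, so these numbers describe the called genes only. Ramp1, Col18a1, Pdgfa, Angpt2 and B2m were among the 120, and Timp1 and Ccnd1 among the 140. The plot of mural cells against other cells shows this division gene by gene.

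**Figure D5:**
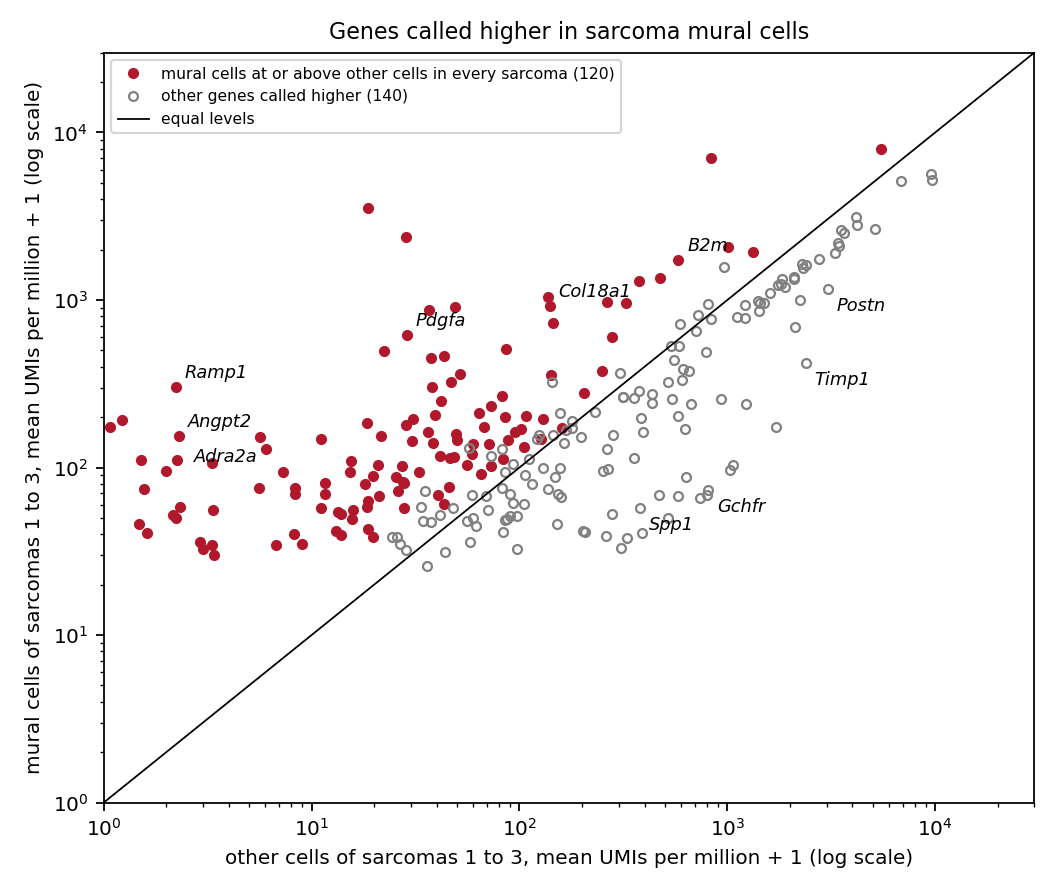
The 260 genes higher in sarcoma mural cells, with their mean CPM over sarcomas 1 to 3 in mural cells against that in all other kept cells (log axes, 1 added to each). Filled red points are the 120 genes at or above the other cells in every sarcoma, open grey points the other 140, and the line marks equality.

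The change in mural cells was set against that in cells with both Dcn and Gsn at 20 or more UMIs per 10000, a rule that takes fibroblast-like transcript profiles and found 251, 2533 and 1583 cells in sarcomas 1 to 3 and 6745 in muscle. An edgeR interaction test over 10456 genes called 0 genes, with 583 at an unadjusted p under 0.05 and a smallest adjusted p of 0.407. Ramp1 had an interaction of 7.50 ± 1.03 SE on the log2 scale (edgeR adjusted p = 0.409), Col18a1 3.90 ± 0.79 (0.468) and Pdgfa 2.72 ± 0.60 (0.502). With all 3 sarcomas, none of the changes above is therefore shown to be particular to mural cells. The count turned on the libraries, with 16 genes higher and 23 lower without sarcoma 2, and 243 higher and 96 lower without sarcoma 3. Without sarcoma 3 the interaction was 8.73 ± 0.74 for Ramp1 (edgeR adjusted p = 3.92e-05), 3.44 ± 0.57 for Col18a1 (0.00404) and 2.39 ± 0.51 for Pdgfa (0.0198). Ramp1 and Col18a1 also passed without sarcoma 2 (0.00261 and 0.049), and none of the 3 did without sarcoma 1 (0.822, 0.822 and 0.973). The Dcn and Gsn cells of the sarcomas had Smarcb1 at 9.3, 1.6 and 48.5 CPM, against 86.1 CPM in those of muscle.

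Sarcoma 4 was left out of the fit, and its 18 thinned cells give it little depth (1 UMI was 27.8 CPM). Its values are set beside the others as a description, since the called genes were chosen for their gap from the same muscle library. The 260 higher genes summed to 124778 CPM in sarcoma 4 and 130783 ± 14655 CPM in sarcomas 1 to 3 (SD, n = 3), against 38982 CPM in muscle. The 261 lower genes summed to 54583 CPM in sarcoma 4 and 42335 ± 8702 CPM in sarcomas 1 to 3 (SD, n = 3), against 160239 CPM in muscle.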

How the data were processed

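Single-cell 3' libraries (10x Chromium v2, per the labels' protocols) of FACS-purified cells were deposited as filtered matrices of UMI counts per gene and barcode. Per the file headers Cell Ranger 6.0.1 made them, and per the submitters' processing notes the genome build was mm10. The 5 matrices hold 39930 barcodes and 28001 features, 3 of them transgenes. Whether introns or strand entered the counts is not given in the sources used here.

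Cells, gene lists and alternatives were chosen with earlier results of these data known. Kept cells had at least 500 genes and at most 10% mitochondrial UMIs. Members were thinned without replacement to 2000 UMIs (seed 1) and summed per library. Total UMIs ran between 151903246 and 213271163 for sarcoma libraries, against 64061069 for muscle. The members compared gave 1076000 thinned UMIs in the sarcomas together and 1220000 in muscle. edgeR 4.0.16 (R 4.3.3; TMM, filterByExpr, quasi-likelihood test, Benjamini-Hochberg at 0.05) compared sarcomas 1 to 3 with muscle, leaving 2 residual degrees of freedom, and its interaction term compared the change with that in Dcn and Gsn cells. Genes with a repeated symbol (121 features) were kept apart by identifier. The test was tested on simulated data. DESeq2 1.42.0 and limma 3.58.1 were alternatives, as were other depths, filters, scalings and sets of members.

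Text genes are the 12 largest rises and falls past the test with 50 CPM or more in the higher group, every sarcoma on one side and, for rises, no lower level than in other cells; the most abundant members of each list (up to 4); and the genes of the cell rule with Acta2, Pdgfrb, Cspg4, Rgs4, Smarcb1, Hic1, tdTomato, Col4a1, Col1a1, Angpt2, Hspa1a and Mki67. Other genes were chosen after their values were seen. A few genes that the rule names are not reported here. Promoters and gene starts are from RefSeq GRCm38.p6.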

Additional observations from a re-analysis of the deposited data

How the results depend on the processing

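The counts of called genes, 260 higher and 261 lower, depended on depth and on sarcoma 3. They were 53 and 96 without thinning, 62 and 120 when thinned to 4000 UMIs, 119 and 135 with every member holding a sarcoma cell gene left out, and 496 and 519 with no filter on low counts; 153 were higher with all 4 sarcomas, 81 lower by DESeq2 and 162 lower by limma-voom. Leaving out 1 sarcoma gave 234 to 600 higher and 206 to 591 lower, the largest counts without sarcoma 3. The interaction test called 0 genes, but 2 lower with Dcn and Gsn at 50 or more per 10000, 16 higher and 20 lower with no filter, and 0 to 243 higher and 0 to 96 lower without 1 sarcoma. Of the 521 called genes, none that could be tested changed sign under any alternative. With every sarcoma on the same side of muscle in 518 of them, and the same muscle library throughout, a kept sign says little. Of the 521, 121 were called without thinning, 155 at 4000 UMIs and 375 with another random draw of the thinned UMIs, so part of the calls depended on the draw. Among 121 called genes followed singly over 19 settings, 81.9% of values kept the call and 20 genes kept it throughout. Genes that were not called turned sign as follows: Pdgfrb 0.20, Tagln -0.41, Col1a2 -0.11 and Heyl 0.0022 at 4000 UMIs; Tagln -0.10 and Ctgf -0.049 without members holding Myh11; Junb -0.21 without sarcoma 3 (0.88 without sarcoma 2); Gapdh -0.0074 with sarcoma cell genes left out. The causes were not tested.

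Choosing members on thinned cells moved the share of mural cells to 1.98% in sarcoma 1 and 2.57% in sarcoma 3, against 7.59% in muscle, which stood at 8.18% with at most 5% mitochondrial UMIs. Scaling to library totals gave 221 higher and 314 lower. An alternative with at least 20 members added no library. No paired analysis was possible because muscle has a single library and the labels match no sarcoma to it.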

Other observations

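The abundant genes here were chosen after their values were seen. Mgp, which encodes a matrix protein that inhibits calcification and binds BMPs, had 8907, 9689 and 5336 CPM in mural cells of sarcomas 1 to 3 against 2035 CPM in muscle (log2 fold change 2.07 ± 0.43 SE, edgeR adjusted p = 0.0114), and the other sarcoma cells had 4129, 7801 and 4549 CPM. Serpine2, a secreted protease inhibitor, had 1904, 2008 and 3197 CPM against 323 CPM (2.97 ± 0.45, edgeR adjusted p = 0.00165). The membrane protein genes Tmem176a (806, 905 and 895 CPM against 105 CPM, edgeR adjusted p = 0.000598) and Tmem176b (817, 928 and 989 CPM against 150 CPM, 0.00137) were even over the sarcomas. Igfbp7, a matrix binding protein of vessels, had 7568, 7242 and 6182 CPM against 2994 CPM (edgeR adjusted p = 0.0404; 0.237 without sarcoma 1 and 0.161 without sarcoma 2), and the fatty acid carrier gene Fabp4 4899, 3447 and 2206 CPM against 1199 CPM (0.048; 0.156 without sarcoma 1 and 0.098 without sarcoma 2).

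The following 4 falls were also chosen after their values were seen. Sdpr, a coat protein of caveolae, had 32.8, 11.4 and 6.73 CPM in sarcoma mural cells against 741 CPM in muscle (-5.34 ± 0.47, edgeR adjusted p = 5.18e-05). Pacsin3, which shapes caveolae, had 27.3, 11.4 and 31.4 CPM against 584 CPM (edgeR adjusted p = 5.18e-05). Cd36, a fatty acid transporter, had 43.7, 60.6 and 62.8 CPM against 693 CPM (6.23e-05), and Tcf15, a transcription factor of somites and microvessels, 8.20, 3.79 and 42.6 CPM against 526 CPM (0.000259). No sarcoma overlapped muscle in these 4 genes.

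Malat1, a nuclear RNA whose share varies with nuclear content and RNA quality, had 25615, 24061 and 34359 CPM in sarcoma mural cells against 85916 CPM in muscle mural cells (-1.52 ± 0.30, edgeR adjusted p = 0.00896; 0.157 without sarcoma 1 and 0.143 without sarcoma 2). Other cells had 21663, 19988 and 42626 CPM in the sarcomas against 40409 CPM in muscle. Its part in the differences was not tested.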
